A study of Mus musculus with 12 samples.

Results

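Chemokine receptors that mark where effector T cells travel were followed here across 4 kinds of mouse T cells. The set held 9 genes, Ccr2, Ccr4, Ccr6, Ccr8, Ccr9, Cxcr3, Cxcr4, Cxcr5 and Cxcr6, and took in every probe set on the array annotated to 1 of these symbols and no other. This gave 17 probe sets of 45037 tested, and 9 of 18193 genes. Ccr9 had 5 probe sets, Ccr2 had 4, Cxcr6 had 2 and each of the other 6 genes had 1. The samples were splenic T cells of female C57BL/6 mice, labelled as 8 to 12 weeks old, measured on Affymetrix whole-genome mouse arrays with 1 array per sample. CD8+ NKT-like cells (n = 5) were grown from splenic CD8+ cells with beads coated with anti-CD3 and anti-CD28 and a high dose of IL-2, and their labels describe expanded cells with a suppressive function. Cultured CD4+ cells (n = 3) were sorted CD4+ cells grown by the same protocol. Naive CD8+ cells (n = 2) were freshly isolated, and activated CD8+ cells (n = 2) had been stimulated with those antibodies in soluble form at low dose. The CD8+ cells were enriched by negative selection, which leaves other spleen cells in the sample, and as the fresh cells were CD8+, lineage and culture cannot be told apart in cultured CD4+ against naive CD8+ cells.

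Chemokine receptors are G protein-coupled receptors with 7 membrane-spanning segments that steer leukocytes along gradients of chemokines. T cells leaving the naive state lose receptors that hold them in lymphoid organs and gain receptors for inflamed tissue, and the combination differs between cytotoxic cells and the helper lineages. CCR2, CXCR3 and CXCR6 are receptors of effector cells, CCR4 and CCR8 are associated with type 2 helper, regulatory and skin-homing T cells, CCR9 serves homing to the gut, and CXCR4, CXCR5 and CCR6 guide positioning in marrow and lymphoid tissue.

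All values are log2 signals after RMA, the summary of the probes of a probe set that the authors deposited. A difference is that of group means on this scale, a fold is 2 to its power, and a difference was called at a q-value of 0.01 or less in limma. Where a gene had several probe sets, the one with the highest mean was its main probe set. Those ending in _x_at or _s_at were passed over where the gene had another. Signals of different probe sets are not comparable in level, so only groups are compared, and values around 5 lie below the median of the whole table, 6.305, where array background makes up part of the signal. Array medians ran from 6.23 to 6.42. The median absolute difference over all probe sets was 0.33 between the 2 activated arrays. It was 0.23 between activated replicate 2 and either naive array. Cultured CD4+ replicate 1 differed by 0.23 from replicates 2 and 3, which differed by 0.12 from each other. Nothing in the labels says that the samples of a group came from separate animals, so the q-values measure the spread between these samples, and the number of arrays limits the precision. In bulk RNA, fewer cells that carry a transcript and less transcript per cell cannot be told apart.

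The samples bore out their labels at the coreceptors. The summed linear level of the 2 CD8 lineage genes ran from 2538 to 7017 in NKT-like, from 3816 to 10090 in naive and from 3194 to 4558 in activated cells, and from 176.2 to 252.5 in cultured CD4+ cells. That of Cd4 and Zbtb7b ran from 1259 to 1467 in cultured CD4+ cells and from 284.6 to 626.7 in the others. Cd4 carried this difference, at 9.82 to 10.10 in cultured CD4+ cells and 6.55 to 7.20 in the others. Zbtb7b did not separate cultured CD4+ from NKT-like cells, at 8.34 to 8.52 in cultured CD4+ and 8.26 to 8.94 in NKT-like cells. It read 8.33 and 8.03 in naive and 7.58 and 8.07 in activated cells. The naive arrays differed from each other, with 7 T cell markers summing to 16100 in replicate 1 and 9987 in replicate 2. Some markers of other cells were higher in the naive samples. Of 13 measured B cell markers, 10 were lower in NKT-like cells than in the naive ones, beside 8.52% of all probe sets. The sum of the 13 was 9139 to 9908 in naive, 767.8 to 873.8 in NKT-like, 739.1 to 869.6 in cultured CD4+ and 963.8 to 1111 in activated cells. Jchain, the immunoglobulin joining chain of plasma cells, gave 79.8% and 83.3% of the sum in the naive samples. Without it, a choice made after the values were seen as for each marker left out of a sum, the sum of the other 12 was 1522 to 1998 in naive, 744.9 to 806.6 in NKT-like, 714 to 821.7 in cultured CD4+ and 903.9 to 1049 in activated cells. The sum of 8 red cell precursor markers was 5904 to 8477 in naive and 630.4 to 862.3 in the other samples, and without Car1 it was 3084 to 5116 and 553.1 to 760.4. Of 10 monocyte and macrophage markers, 2 (Lyz2 and Ms4a6c) were lower and 1 (Fcgr3) was higher in NKT-like cells than in the naive ones. The shares of all probe sets were 8.52% lower and 7.83% higher. The sum of the 10 was 1603 to 1806 in naive and 970.4 to 1326 in the others. Without Ms4a6c it was 960.3 to 1023 in naive, 839.8 to 962.1 in NKT-like, 709.1 to 858.8 in cultured CD4+ and 778 to 1029 in activated cells. The naive range overlapped those of NKT-like and activated cells.

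The 4 genes whose group means spanned at least 2 log2 units on the main probe set are shown with the 250 bases before their annotated start (RefSeq, GRCm38.p6, 5′ to 3′ on the gene's strand), the stretch nearest the start of these transcripts. Capitals mark matches to any of 7 short motifs searched on both strands. Ccr8 lies at chr9:120091883-120092132 on the plus strand, Ccr9 at chr9:123766961-123767210 on the plus strand, Cxcr4 at chr1:128592300-128592549 on the minus strand and Cxcr6 at chr9:123806227-123806476 on the plus strand.
Ccr8: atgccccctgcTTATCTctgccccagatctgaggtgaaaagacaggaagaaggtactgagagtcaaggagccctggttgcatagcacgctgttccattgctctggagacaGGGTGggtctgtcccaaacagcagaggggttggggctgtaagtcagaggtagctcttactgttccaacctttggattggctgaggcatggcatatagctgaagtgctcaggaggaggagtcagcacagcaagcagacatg
Ccr9: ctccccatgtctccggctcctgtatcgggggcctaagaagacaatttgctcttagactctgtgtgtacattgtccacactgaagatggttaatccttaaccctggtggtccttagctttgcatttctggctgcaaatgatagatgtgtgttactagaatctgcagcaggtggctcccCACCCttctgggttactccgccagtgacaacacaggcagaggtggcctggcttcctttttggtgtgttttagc
Cxcr4: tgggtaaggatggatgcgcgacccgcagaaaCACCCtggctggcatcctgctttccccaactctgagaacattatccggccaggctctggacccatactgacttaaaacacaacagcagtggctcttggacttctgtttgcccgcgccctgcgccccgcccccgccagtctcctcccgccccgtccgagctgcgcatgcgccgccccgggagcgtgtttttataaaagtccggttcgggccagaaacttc
Cxcr6: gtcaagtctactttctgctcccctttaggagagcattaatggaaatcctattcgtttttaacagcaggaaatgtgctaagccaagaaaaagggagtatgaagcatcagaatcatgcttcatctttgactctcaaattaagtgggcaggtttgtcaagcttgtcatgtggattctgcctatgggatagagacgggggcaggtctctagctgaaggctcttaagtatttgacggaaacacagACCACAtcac

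The capitals in Ccr8 are a GATA motif (AGATAA, here in its reverse TTATCT) and a KLF motif (CACCC, here GGGTG), which start 239 and 140 bases before the gene. Ccr9 and Cxcr4 each held 1 KLF match, 73 and 219 bases before the start, and Cxcr6 held 1 RUNX match (TGTGGT, here ACCACA) 10 bases before it. No T-box (AGGTGT), AP-1 (TGANTCA), STAT (TTCNNNGAA) or FOXO (TGTTTAC) letters were found in these 4 windows. Of 32851 promoter windows of the same length, 52.0% held the KLF letters, 14.0% RUNX, 11.8% T-box, 9.99% GATA, 7.02% STAT, 6.75% AP-1 and 3.17% FOXO, so most windows hold the KLF letters. The windows of 8 of the 9 members were found in the table used, and that of Cxcr5 was not. Of the 9 genes, 6 lie on chromosome 9, Ccr9 and Cxcr6 among them with 1 coding gene, Fyco1, in between.

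**Figure D1:**
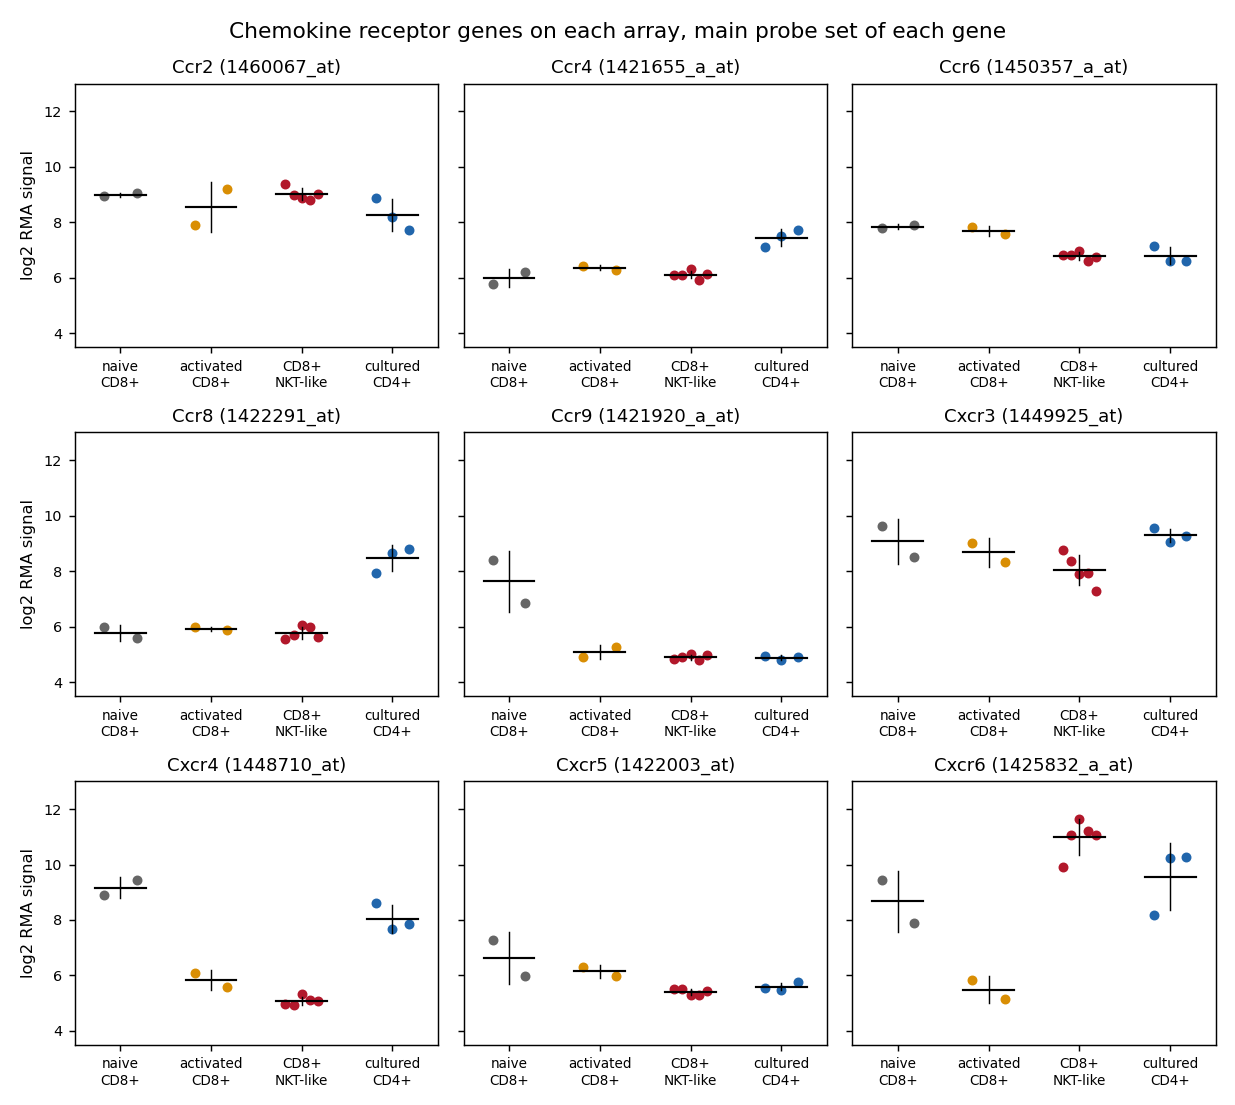
Log2 RMA signal (vertical axis) of the main probe set of each of the 9 receptor genes, with 1 point per array, a bar at the group mean and a line of 1 SD on either side, for naive CD8+ (n = 2), activated CD8+ (n = 2), CD8+ NKT-like (n = 5) and cultured CD4+ samples (n = 3). Ccr8 and Ccr4 are high in cultured CD4+ cells, Ccr9 is high in naive cells, Cxcr4 is high in naive and cultured CD4+ cells, and Cxcr6 is lowest in activated cells at 5.14 and 5.83.

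Against naive CD8+ cells, NKT-like cells had a lower signal of 4 receptors, Cxcr4, Ccr9, Cxcr5 and Ccr6, and a higher one of Cxcr6, on the main probe sets, and a higher Ccr2 on 3 of its 4 probe sets. The 5 genes called, of 9, stand beside 16.4% of all probe sets called in this comparison, 7.83% higher and 8.52% lower. The median difference of the 9 members was -1.03, against -0.10 for all probe sets. Cultured CD4+ cells shared the naive samples as controls, and there Ccr8 and Ccr4 were higher and Ccr9, Cxcr4 and Ccr6 lower, so that 5 of 9 were called beside 15.5% of all probe sets, 8.18% higher and 7.31% lower. In activated cells Ccr9 and Cxcr4 were lower than in naive cells and no other member was called, 2 of 9 beside 5.7% of all probe sets, 3.1% higher and 2.6% lower. Directly against cultured CD4+ cells, NKT-like cells had lower Ccr4, Ccr8 and Cxcr4 on the main probe sets, 3 of 9 beside 2.18%, 0.85% higher and 1.33% lower. Ccr2 was higher in NKT-like cells there on 3 of its 4 probe sets, the main one not among them. Against activated cells, NKT-like cells had higher Cxcr6 and lower Ccr6 on the main probe sets, 2 of 9 beside 3.17%, 2.19% higher and 0.979% lower. The same 3 Ccr2 probe sets were higher in NKT-like than in activated cells. Against the same activated samples, cultured CD4+ cells had higher Ccr4, Ccr8, Cxcr4 and Cxcr6, 4 of 9 beside 1.46%, 1.11% higher and 0.351% lower.

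**Figure D2:**
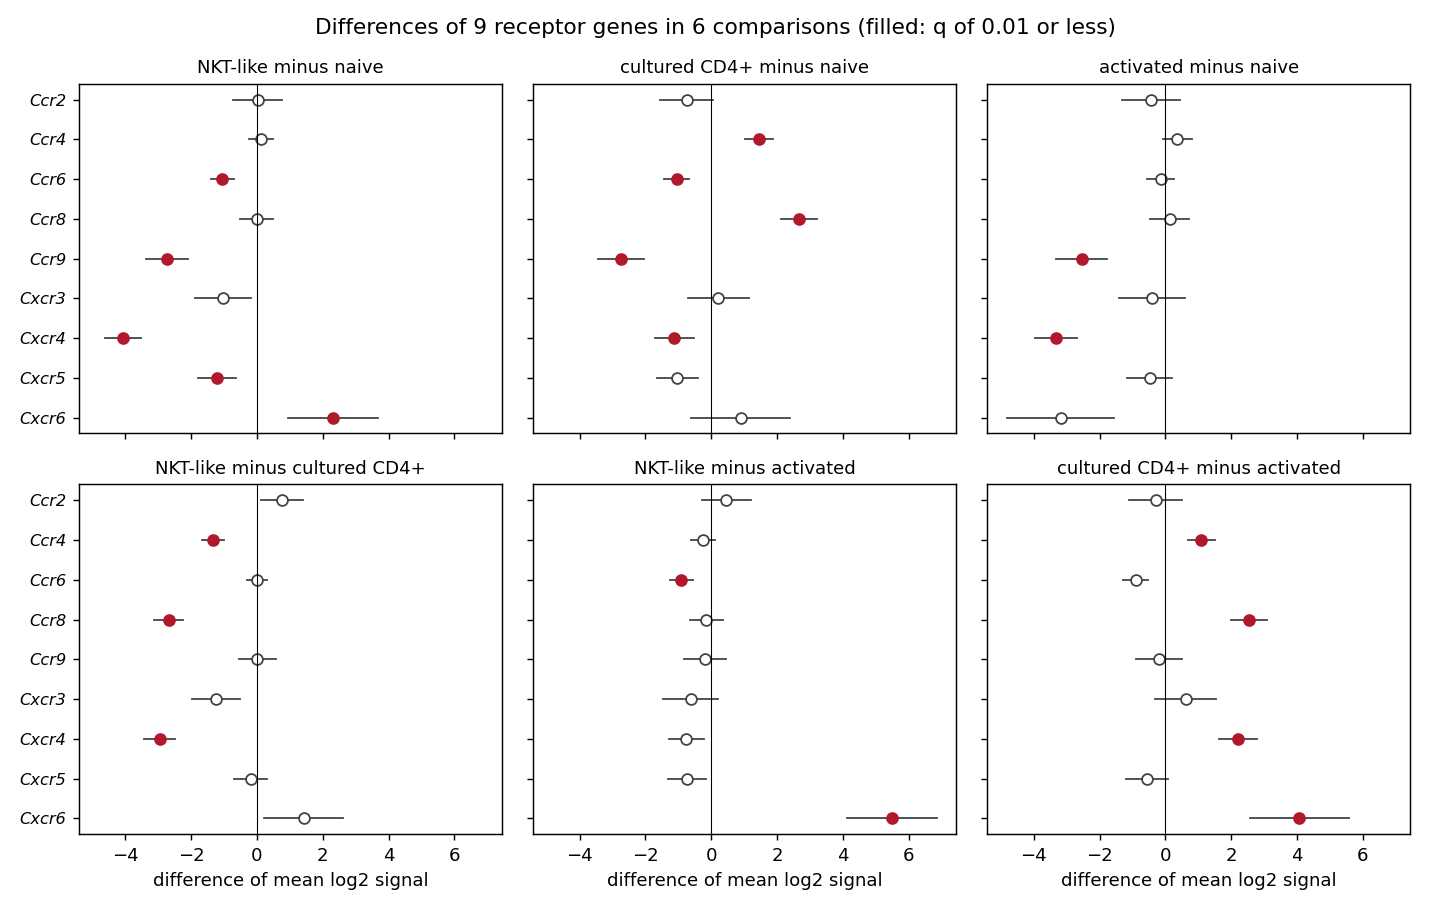
Difference of group means in log2 units (horizontal axis) of the main probe set of the 9 receptor genes in 6 comparisons between groups, with a line for the 95% confidence interval of the limma fit and filled points where q was 0.01 or less. Cxcr4 lies furthest to the left in NKT-like minus naive cells at -4.08, and Cxcr6 furthest to the right in NKT-like minus activated cells at 5.50.

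Ccr2, the receptor of the monocyte chemoattractant proteins, separated NKT-like cells from the other 3 groups on 3 of its 4 probe sets. On 1421186_at the NKT-like arrays read 10.45, 10.90, 9.81, 9.42 and 9.80, the cultured CD4+ arrays 5.05, 5.79 and 5.76, the naive arrays 6.10 and 6.11, and the activated arrays 4.98 and 5.15. Every NKT-like array lay more than 3 log2 units above every other array. The NKT-like mean was 15.7-fold that of naive cells (95% interval 9.29 to 26.4, q = 1.26e-05), 23.4-fold that of cultured CD4+ cells (14.8 to 36.8, q = 6.87e-06) and 32.2-fold that of activated cells (19.1 to 54.3, q = 1.06e-05). On 1421187_at the NKT-like arrays read 8.37 to 9.40, and the other 7 arrays 4.81 to 5.42. The differences there were 14.0-fold against naive, 12.9-fold against cultured CD4+ and 15.8-fold against activated cells, with q-values of 1.57e-06, 2.92e-06 and 6.65e-06. On 1421188_at the NKT-like arrays ran from 6.82 to 8.20 and the others from 5.30 to 6.07, again without overlap. The differences were smaller, 3.07-fold (q = 0.00154), 3.86-fold (q = 0.00137) and 4.04-fold (q = 0.00189).

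The fourth Ccr2 probe set, 1460067_at, had the highest mean signal and showed another pattern. Its NKT-like arrays read 9.39, 8.98, 8.88, 8.81 and 9.01, its cultured CD4+ arrays 8.86, 8.20 and 7.71, its naive arrays 8.95 and 9.05, and its activated arrays 7.91 and 9.19. The NKT-like mean exceeded the naive one by 0.02 (95% interval of the fold 0.606 to 1.69), and no comparison was called on it. The interval lies below the 15.7-fold, 14.0-fold and 3.07-fold differences of the other 3 probe sets, so the disagreement is larger than the spread between arrays, and its cause was not tested. The 2 probe sets with the larger differences kept all 3 calls whichever of the 12 arrays was left out. On 1421188_at the call against naive cells was lost without naive replicate 1 (q = 0.022) or 2 (q = 0.021), that against cultured CD4+ cells without cultured CD4+ replicate 2 (q = 0.012), and that against activated cells without activated replicate 1 (q = 0.012) or 2 (q = 0.014). Ccr2 was called in neither direction between cultured CD4+, naive and activated cells on any of the 4 probe sets.

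**Figure D3:**
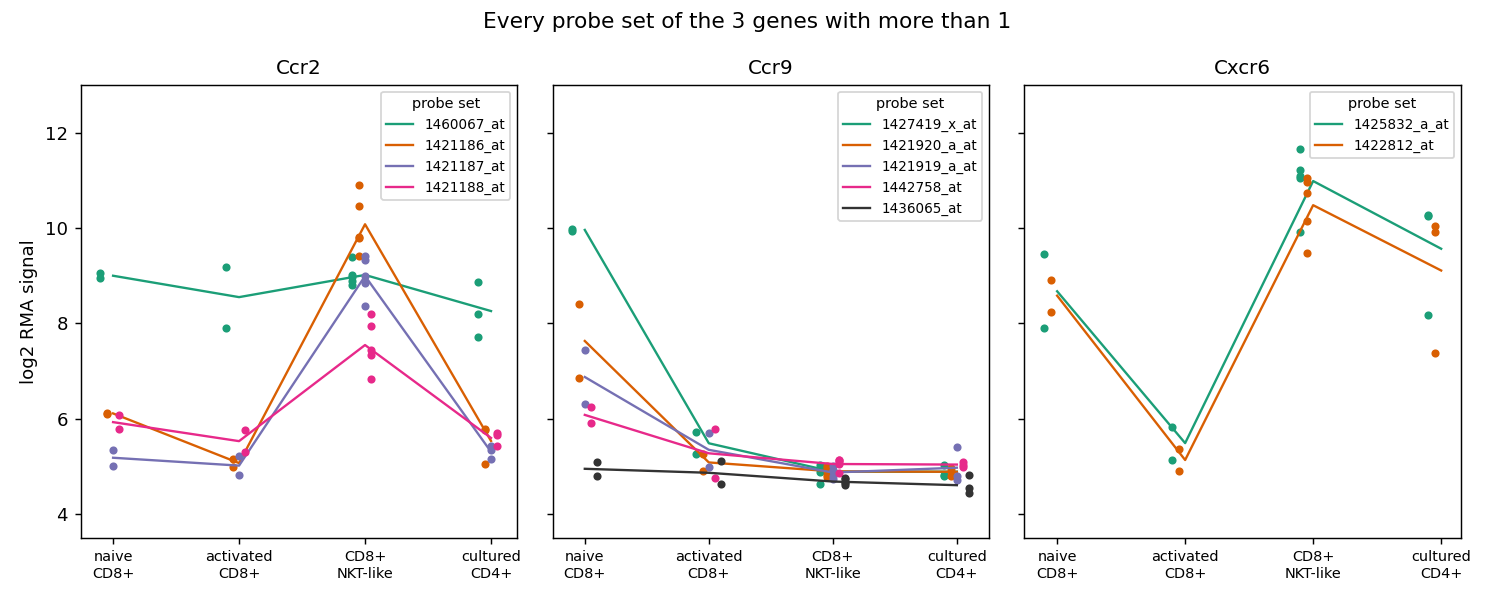
Log2 RMA signal (vertical axis) on each array for every probe set of Ccr2 (4), Ccr9 (5) and Cxcr6 (2), with lines that join the group means of a probe set across the 4 groups. The line of Ccr2 probe set 1460067_at is level between naive and NKT-like cells, a difference of 0.02, where the other 3 rise, the Ccr9 lines fall from naive cells by unequal amounts, and the 2 Cxcr6 lines run alongside each other.

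Cxcr6, the receptor of CXCL16 and a receptor of tissue-resident effector T cells and NKT cells, was lowest in activated cells and highest in NKT-like cells. On 1425832_a_at the NKT-like arrays read 9.92, 11.08, 11.66, 11.21 and 11.06, the cultured CD4+ arrays 8.17, 10.25 and 10.27, the naive arrays 9.45 and 7.90, and the activated arrays 5.83 and 5.14. The activated arrays lay below all others, whereas NKT-like and cultured CD4+ arrays overlapped. NKT-like cells exceeded activated cells 45.2-fold (95% interval 17.5 to 117, q = 0.000326), a call that held whichever array was left out. Cultured CD4+ cells exceeded activated cells 16.9-fold (q = 0.006), which was lost without NKT-like replicate 2 or 4, cultured CD4+ replicate 2 or 3, or activated replicate 2, with q-values up to 0.079. NKT-like cells exceeded naive cells 4.97-fold (95% interval 1.92 to 12.8, q = 0.00894), and this call rested on few arrays. It was lost in 8 of the 12 fits that left out an array, and without naive replicate 2, the lower of the naive pair, the fold was 2.90 (q = 0.19). The naive arrays themselves differed by more than 1.5 log2 units. The other probe set, 1422812_at, ran the same way, with 40.7-fold against activated cells (q = 0.000514), 15.7-fold for cultured CD4+ against activated cells (q = 0.00841) and 3.73-fold against naive cells, which was not called (q = 0.0231). Activated cells were 9.10-fold below naive cells on the first probe set (q = 0.0124) and 10.9-fold on the second (q = 0.0105), neither of them called. The difference between NKT-like and cultured CD4+ cells was 2.68-fold (95% interval 1.17 to 6.13, q = 0.192).

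Cxcr3, the receptor of the interferon-inducible chemokines CXCL9, CXCL10 and CXCL11, was not called in any comparison. The NKT-like arrays read 8.75, 8.38, 7.89, 7.92 and 7.30, the cultured CD4+ arrays 9.55, 9.06 and 9.27, the naive arrays 9.64 and 8.51, and the activated arrays 9.03 and 8.31. All NKT-like arrays lay below all cultured CD4+ arrays, a 2.37-fold difference of means (95% interval 1.42 to 3.95) with q = 0.0569. The NKT-like mean lay 2.04-fold below the naive one (95% interval 1.14 to 3.65, q = 0.031) with overlapping arrays.

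Ccr8, the receptor of CCL1, was high only in cultured CD4+ cells among the 4 groups. These arrays read 7.93, 8.66 and 8.81, the NKT-like arrays 5.55, 5.71, 6.04, 5.97 and 5.62, the naive arrays 5.99 and 5.58, and the activated arrays 5.97 and 5.87. Cultured CD4+ cells stood 6.43-fold above NKT-like cells (95% interval 4.76 to 8.69, q = 1.56e-05), 6.41-fold above naive cells (4.40 to 9.34, q = 2.14e-05) and 5.83-fold above activated cells (q = 0.000223). These 3 calls held whichever array was left out. NKT-like, naive and activated cells differed by at most 0.14 log2 units from each other, and the interval of NKT-like over naive cells was 0.706 to 1.41.

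Ccr4, the receptor of CCL17 and CCL22, was also highest in cultured CD4+ cells, by less. The cultured CD4+ arrays read 7.12, 7.49 and 7.73, the NKT-like arrays 6.11, 6.08, 6.30, 5.93 and 6.15, the naive arrays 5.76 and 6.22, and the activated arrays 6.42 and 6.30. The lowest cultured CD4+ array was above the highest of the other groups. The mean was 2.74-fold that of naive cells (95% interval 2.06 to 3.64, q = 0.000178), 2.52-fold that of NKT-like cells (2.01 to 3.17, q = 0.000361) and 2.13-fold that of activated cells (1.60 to 2.83, q = 0.00718). The last was lost in 8 of the 12 fits that left out an array, without NKT-like replicate 1, 2, 4 or 5, cultured CD4+ replicate 2 or 3, or either activated sample, with q-values up to 0.076. CCR4 and CCR8 also occur on regulatory T cells. Of 8 measured markers of these cells, 5 (Ctla4, Il2ra, Tnfrsf18, Nrp1 and Izumo1r) were higher and 1 (Ikzf2) was lower in cultured CD4+ cells than in the naive ones. The shares of all probe sets were 8.18% higher and 7.31% lower. The sum of the 8 was 7965 to 12920 in cultured CD4+, 1595 to 1663 in naive, 3615 to 8052 in NKT-like and 5978 to 8229 in activated cells. Foxp3, the defining factor, measured 5.05 to 5.54 on the 12 arrays. The part of such cells in the Ccr4 and Ccr8 values was not tested.

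Ccr9, the receptor of CCL25 and of homing to the small intestine, was high only in naive cells. On its main probe set, 1421920_a_at, the naive arrays read 8.40 and 6.86, the activated arrays 4.91 and 5.25, the NKT-like arrays 4.78 to 5.01 and the cultured CD4+ arrays 4.80 to 4.96. NKT-like cells were 6.66-fold (95% interval 4.25 to 10.5, q = 5.5e-05), cultured CD4+ cells 6.70-fold (q = 0.000102) and activated cells 5.85-fold (q = 0.00101) below naive cells. The naive pair differed by more than 1.5 log2 units, so the fold against NKT-like cells was 3.91 without naive replicate 1 and 11.3 without replicate 2, called both times. The call for activated cells was lost without activated replicate 1 (q = 0.011). On 1427419_x_at, a probe set that may bind several sequences, the naive arrays read 9.98 and 9.94 and the other 10 arrays 4.63 to 5.71. The folds there were 33.6 for NKT-like, 33.6 for cultured CD4+ and 22.3 for activated cells, with q-values of 2.24e-09, 6.05e-09 and 1.26e-07, and all 3 calls held whichever array was left out.

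The remaining Ccr9 probe sets gave the same direction with smaller sizes. On 1421919_a_at the naive arrays read 7.45 and 6.30 and the others 4.71 to 5.70, and the folds below naive cells were 4.01 in NKT-like (q = 0.000359), 3.74 in cultured CD4+ (q = 0.000846) and 2.88 in activated cells (q = 0.0111, not called). On 1442758_at the naive arrays read 5.90 and 6.25 and the others 4.76 to 5.78. The folds there were 2.04 (q = 0.00267) and 2.06 (q = 0.00406) in NKT-like and cultured CD4+ cells, both lost without either naive array (q up to 0.071), and the second also without cultured CD4+ replicate 2 or 3. On 1436065_at all 12 arrays read 4.44 to 5.11 and nothing was called. Differences of Ccr9 between NKT-like, cultured CD4+ and activated cells were called on none of the 5 probe sets. B cell markers were higher in the same 2 arrays as Ccr9. Without Jchain their summed level was 1522 to 1998 there against 714 to 1049 elsewhere. Red cell precursor markers were higher there too. Plasmacytoid dendritic cells also carry CCR9. Of 9 measured markers of these cells, 4 (Pacsin1, Spib, Ly6d and Ccdc88a) were lower and 1 (Irf8) was higher in NKT-like cells than in the naive ones. The shares of all probe sets were 8.52% lower and 7.83% higher. Ly6d is also on the B cell list, and Irf8 is also a gene of activated T cells. The sum of the 9 was 1143 to 1296 in naive, 2997 to 5757 in NKT-like, 984 to 1191 in cultured CD4+ and 4676 to 5755 in activated cells. Irf8 read 11.14 to 12.31 in NKT-like and activated cells and 7.67 to 9.12 in the others. It made up most of the sum in NKT-like and activated cells, so the sum does not describe the other markers. Pacsin1 read 7.96 and 7.58 in naive cells and 6.13 to 6.72 elsewhere, and Siglech 6.94 to 7.47 on the 12 arrays. The part of these other cells in the Ccr9 difference was not tested.

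Cxcr4, the receptor of CXCL12 that retains lymphocytes in marrow and lymphoid tissue, had the widest range among the main probe sets that were lower in NKT-like cells. The naive arrays read 8.90 and 9.43, the cultured CD4+ arrays 8.61, 7.66 and 7.87, the activated arrays 6.10 and 5.58, and the NKT-like arrays 4.99, 4.94, 5.33, 5.10 and 5.07. No array of one group reached into another. NKT-like cells were 16.9-fold below naive cells (95% interval 11.6 to 24.6, q = 9.14e-07) and 7.78-fold below cultured CD4+ cells (5.61 to 10.8, q = 1.37e-05), and activated cells were 10.1-fold below naive cells (6.42 to 15.7, q = 5.68e-05). These 3 calls held whichever array was left out. Cultured CD4+ cells were 4.62-fold above activated cells (q = 0.000964, lost without activated replicate 2, q = 0.019). The neighbours in the order were closer. Cultured CD4+ cells were 2.18-fold below naive cells (q = 0.00545), which was lost without cultured CD4+ replicate 2 (q = 0.026) or 3 (q = 0.024) or naive replicate 1 (q = 0.011) or 2 (q = 0.089). NKT-like cells were 1.68-fold below activated cells (95% interval 1.16 to 2.45), which was not called (q = 0.0625).

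Ccr6, the receptor of CCL20 on B cells and type 17 helper cells, separated the bead cultures from the other samples. The naive arrays read 7.78 and 7.91, the activated arrays 7.82 and 7.57, the NKT-like arrays 6.83, 6.84, 6.96, 6.60 and 6.74, and the cultured CD4+ arrays 7.15, 6.61 and 6.62. All 8 arrays of the bead cultures lay below the 4 others. Both NKT-like and cultured CD4+ cells were 2.07-fold below naive cells (q = 0.000426 and 0.000738), and each call was lost without naive replicate 2 (q = 0.015). NKT-like cells were 1.87-fold below activated cells (q = 0.00424), lost without NKT-like replicate 4 or 5 or either activated sample, with q-values up to 0.021. Cultured CD4+ cells were 1.87-fold below activated cells too, which was not called (q = 0.0117). NKT-like and cultured CD4+ means were equal at 6.79, with an interval of the fold of 0.811 to 1.23, and activated over naive cells gave 0.903 (q = 0.444). B cell markers without Jchain summed to 903.9 to 1049 in the activated samples, where Ccr6 read 7.57 and 7.82, and to 1522 to 1998 in the naive samples. The part of B cell RNA in the Ccr6 values was not tested.

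Cxcr5, the receptor of CXCL13 on follicular B and T cells, lay 2.33-fold below naive cells in NKT-like cells (q = 0.00311), and 1 naive array decided this. The naive arrays read 7.29 and 5.97, the activated arrays 6.31 and 5.99, the NKT-like arrays 5.50, 5.50, 5.30, 5.29 and 5.45, and the cultured CD4+ arrays 5.56, 5.49 and 5.76. Without naive replicate 1 the fold was 1.48 and the call was lost (q = 0.025). Cultured CD4+ cells were 2.04-fold below naive cells without a call (q = 0.0107). The sum of B cell markers without Jchain was 1998 in naive replicate 1 and 1522 in replicate 2. Ms4a1, which encodes CD20, read 8.77 and 8.17 there, and Bank1, a B cell scaffold protein, 6.49 and 6.95. Naive replicate 2 was also lower at the 7 T cell markers, which summed to 16100 in replicate 1 and 9987 in replicate 2. The 2 CD8 lineage genes summed to 10090 and 3816, whereas red cell precursor markers ran the other way, at 5904 and 8477. The part of B cell RNA in the Cxcr5 values was not tested, nor was that of these differences between the naive arrays.

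Genes with the profile most like that of a member were taken over the 12 arrays from 18193 genes, by the root mean square difference of log2 profiles centred on their means. For Ccr8 these were Efna5, an ephrin ligand, at 0.22, and Sval1 at 0.25. Efna5 measured 9.84 ± 0.22 (SD) in cultured CD4+ cells and 6.89 ± 0.39 in NKT-like cells. For Ccr9 they were Aqp1, a water channel also of red cells, at 0.22, and Pde2a, a phosphodiesterase, at 0.23. Aqp1 measured 7.72 ± 0.43 in naive and 4.90 ± 0.14 in NKT-like cells. For Cxcr4 they were C1qtnf12 at 0.66 and Slfn1, a schlafen gene of quiescent T cells, at 0.77. For Cxcr6 they were Glipr1 at 0.84 and Capn2, a calpain protease, at 0.89. These distances are in log2 units and were not scaled to the range of a member. Group means spanned 2.69 units in Ccr8, 2.74 in Ccr9, 4.08 in Cxcr4 and 5.50 in Cxcr6. The distances of different members therefore cannot be ranked against each other. For Ccr2 probe set 1421186_at, a profile chosen after its values were seen, they were Tjp1, a tight junction scaffold, at 0.43 and Klhl30 at 0.54. Tjp1 measured 10.17 ± 0.25 in NKT-like cells and 6.31 ± 0.43 in naive cells. The 12 points share 4 group means, and these likenesses are descriptions.

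Of 14 other chemokine receptor genes measured, 2 lay below naive cells in NKT-like cells and 12 were not called. In that comparison 16.4% of all probe sets were called, and none of the 14 was called higher in any comparison. Their median difference against naive cells was -0.31 in NKT-like and -0.32 in cultured CD4+ cells, beside -0.10 for all probe sets in each. Ccr1, named after its values were seen, had no call as higher although its levels differed. It read 7.89 to 9.42 in cultured CD4+ cells, 6.27 to 10.24 in NKT-like cells and 5.63 to 6.28 in naive and activated cells. Ccr7, which brings naive T cells into lymph nodes, read 6.44, 6.44, 6.18, 6.43 and 6.55 in NKT-like, 8.64, 8.29 and 8.36 in cultured CD4+, 10.87 and 8.70 in naive, and 10.71 and 9.90 in activated cells. NKT-like cells were 10.4-fold below naive cells (q = 0.000157), 14.9-fold below activated cells (q = 0.000275) and 4.07-fold below cultured CD4+ cells (q = 0.00899). The last was lost in 8 of the 12 fits without an array, those without any of the 5 NKT-like or 3 cultured CD4+ arrays, with q-values up to 0.045. Cx3cr1, the fractalkine receptor, was 1.53-fold lower in NKT-like (q = 0.00533), 1.67-fold lower in cultured CD4+ (q = 0.00343) and 1.78-fold lower in activated cells (q = 0.00767) than in naive cells, and each of these calls was lost without either naive array and without some others.

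Most genes of signalling below the receptors were not called. Of 27 measured genes of G protein, kinase, arrestin, small GTPase and RGS proteins, 5 rose and 2 fell from naive to NKT-like cells, against 4 and 1 in cultured CD4+ cells, and 2 and 1 in activated cells. The other 20, 22 and 24 were not called, and the shares called among all probe sets were 16.4%, 15.5% and 5.7%. The median difference of the 27 was 0.39 in NKT-like and 0.41 in cultured CD4+ cells, beside -0.10 for all probe sets in each. Rgs1, a GTPase activator that dampens chemokine receptor signalling, read 6.28 and 6.42 in naive cells and 9.18 to 11.78 on all other arrays. It was 23.9-fold higher in NKT-like (q = 7.38e-05), 41.3-fold in cultured CD4+ (q = 5.32e-05) and 17.6-fold in activated cells (q = 0.0015), the last lost without either naive array or activated replicate 1. Gng2, a G protein gamma subunit, was 8.15-fold higher in NKT-like and 7.95-fold higher in cultured CD4+ cells (q = 5.92e-05 and 0.000125). Rgs10, another RGS protein, lay 4.25-fold below naive cells in NKT-like cells (q = 0.0019), lost without either naive array.

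Between NKT-like and cultured CD4+ cells 3 of the 27 signalling genes were higher and 1 lower, beside 0.85% and 1.33% of all probe sets. Pik3cg, the catalytic subunit of the phosphoinositide 3-kinase that acts below G protein-coupled receptors, read 9.28 to 9.81 in NKT-like and 8.13 to 8.40 in cultured CD4+ cells. NKT-like cells exceeded cultured CD4+ cells 2.23-fold (q = 0.000248), naive cells 2.96-fold (q = 1.7e-05) and activated cells 2.66-fold (q = 0.000152), and these 3 calls held whichever array was left out. Rgs18 was 5.48-fold higher (q = 0.00199), lost without cultured CD4+ replicate 2 or 3. Dock8, an activator of the GTPase CDC42 in migrating lymphocytes, was 2.23-fold higher (q = 0.00908), lost without any 1 of the 8 arrays of the 2 groups, with q-values up to 0.046. Grk5, a kinase that desensitises receptors, lay 3.60-fold below cultured CD4+ cells in NKT-like cells (q = 8.75e-06), at 6.56 to 7.01 against 8.53 to 8.77.

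**Figure D4:**
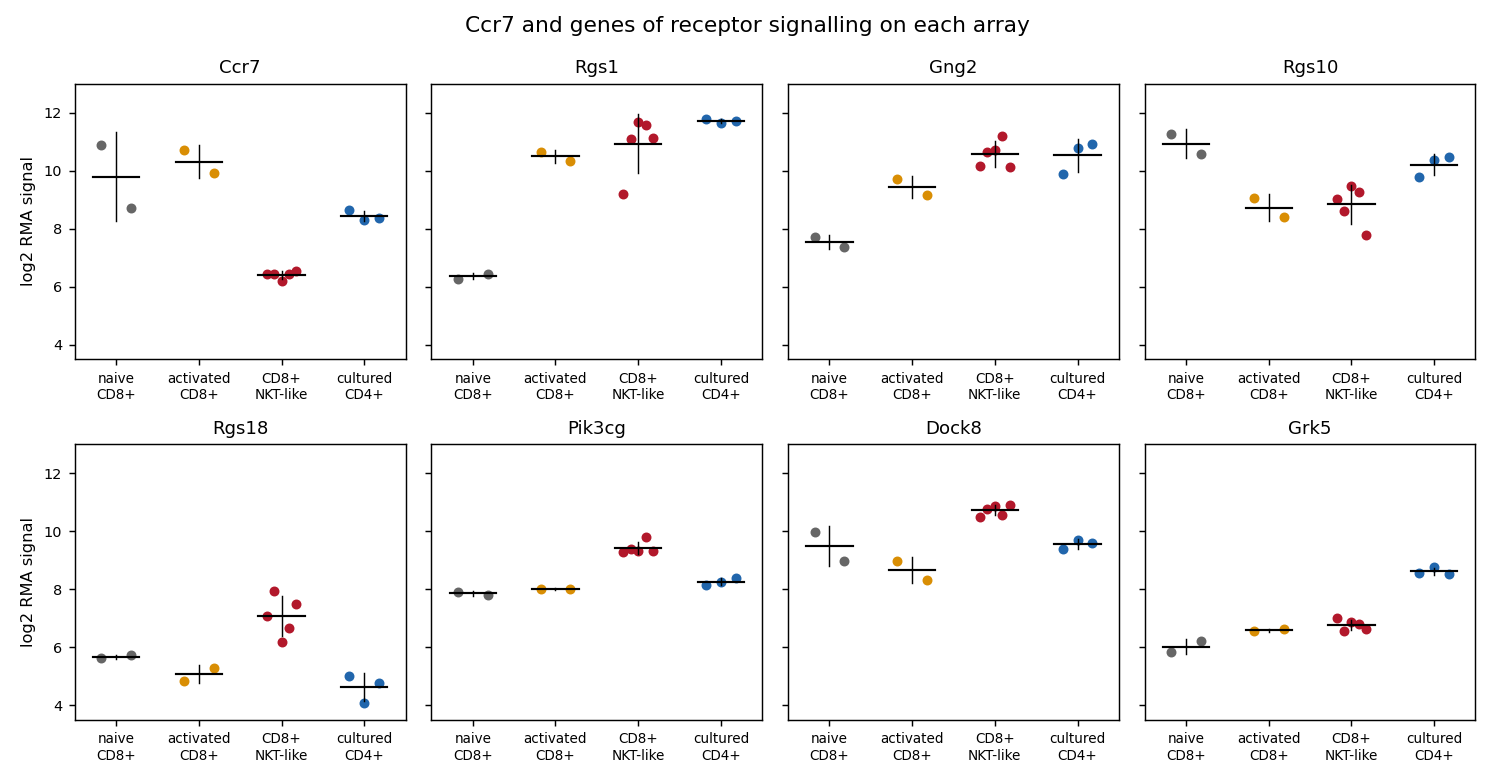
Log2 RMA signal (vertical axis) of Ccr7 and of 7 genes of receptor signalling on each array, with a bar at the group mean and a line of 1 SD on either side, for naive CD8+ (n = 2), activated CD8+ (n = 2), CD8+ NKT-like (n = 5) and cultured CD4+ samples (n = 3). Ccr7 is lowest in NKT-like cells at 6.18 to 6.55, Rgs1 and Gng2 are low in naive cells, Pik3cg is highest in NKT-like cells and Grk5 in cultured CD4+ cells.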

How the data were processed

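RNA of 12 samples was measured on 12 arrays. The authors deposited log2 values from RMA, a method that corrects background, normalizes quantiles and summarises probes. No version was found, and it was not settled whether RMA had been run on all arrays at once. Groups were taken from the sample titles. Of 45101 probe sets, 64 controls were left out. Symbols came from the platform annotation, in which 34945 probe sets have 1 symbol, 932 several and 9160 none. A linear model of the 4 groups was fitted with limma 3.58.1 (R 4.3.3), leaving 8 residual degrees of freedom beside 3.03 from the prior. For each comparison, Storey q-values were taken over 45037 probe sets. A gene's main probe set had the highest mean, and those ending in _x_at or _s_at were used only where no other existed. Lists were described by counts and medians, and list genes named were up to 4 per list with the largest called differences in NKT-like against naive or cultured CD4+ cells, and any other receptor called. Of the listed genes, 14 were not analysed here. The members and lists were chosen with earlier results of these data known. The code was tested on simulated data. Alternatives were array weights, separate fits of each pair of groups, a robust prior with a trend, Benjamini-Hochberg in place of Storey, leaving out dim probe sets, quantile normalization, median centring, other probe set rules, a replicate block and leaving out each array. Arrays carry no read depth.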

Additional observations from a re-analysis of the deposited data

Results flagged for a closer look

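The difference of NKT-like from naive cells and that of cultured CD4+ from naive cells were set against each other for each of the 17 probe sets in limma. Since both use the same naive arrays, their difference equals NKT-like minus cultured CD4+ cells. At a q-value of 0.01 or less 6 of the 17 probe sets differed, 3 of them of Ccr2, beside 2.18% of all probe sets. Ccr2 differed by 4.55 log2 units on 1421186_at, by 3.69 on 1421187_at and by 1.95 on 1421188_at, in each case higher in NKT-like cells on 5 of 5 arrays against 3 of 3, while 1460067_at differed by 0.76 without a call. Ccr4 differed by -1.33, Ccr8 by -2.69 and Cxcr4 by -2.96, each lower on all 5 NKT-like arrays than on all 3 cultured CD4+ arrays. Within the 5 NKT-like arrays no single array stood apart from the rest by Dixon's criterion on any of the 17 probe sets, and groups of 2 or 3 arrays were not tested.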

How the results depend on the processing

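Of 540 differences of a member under an alternative other than leaving out an array, 488 kept their direction and their side of the threshold, 32 lost a call, 20 gained one and 0 reversed. Of 648 with 1 array left out the numbers were 608, 34, 6 and 0. The calls of Ccr8 in cultured CD4+ cells against naive and against NKT-like cells, and those of Cxcr4 in NKT-like against naive and against cultured CD4+ cells, held under every alternative run. Among the 9 members, the number called in activated against naive cells, 2, was 1 with pairs of groups fitted alone, with array weights or with the probe set of next highest mean. In cultured CD4+ against activated cells, 4 became 1 with pairs fitted alone or with array weights, and in NKT-like against activated cells, 2 became 0 with array weights. With a replicate block the number was 2 in NKT-like and 3 in cultured CD4+ against naive cells, where it had been 5 in each, 1 in activated against naive cells, 0 in NKT-like against activated cells and 1 in cultured CD4+ against activated cells. Leaving out 1 array gave 3 to 5 in NKT-like against naive, 4 to 5 in cultured CD4+ against naive, 1 to 3 in activated against naive, 3 to 3 in NKT-like against cultured CD4+, 1 to 3 in NKT-like against activated and 1 to 5 in cultured CD4+ against activated cells. Samples with the same replicate number deviated from their group means with correlations of -0.50 to 0.28. In a group of 2 arrays the deviations mirror each other, so these values cannot decide whether the numbers pair the samples. Why the block lost calls was not tested. Under quantile normalization Cxcr3 was called in NKT-like against naive cells, as lower (q = 0.0096). Median centring moved the median difference of all probe sets against naive cells from -0.10 to 0.02 in both cultured groups. An absent call does not show equal levels, and signals near array background understate a fold.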

Other observations

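Of 15 ligands of the 9 receptors, all measured, 1 was called against naive cells. This was so in NKT-like and in cultured CD4+ cells, beside 16.4% and 15.5% of all probe sets. Cxcl9, a ligand of CXCR3, was 1.59-fold lower in NKT-like (q = 0.00079) and 1.67-fold lower in cultured CD4+ cells (q = 0.000764), at 5.81 to 6.12 against 6.53 and 6.73 in naive cells, and both calls were lost without naive replicate 2. The 15 ligands had a median difference of -0.20 in NKT-like against naive cells, beside -0.10 for all probe sets. Ccl1, the ligand of CCR8, was chosen after its values were seen. It read 8.16, 11.23 and 11.39 in cultured CD4+ cells, 7.18, 10.22, 7.21, 7.45 and 10.08 in NKT-like cells, 6.61 and 7.09 in naive cells and 8.01 and 7.40 in activated cells. It was not called in any comparison, with q = 0.0215 for cultured CD4+ against naive cells.

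Of 13 measured regulators of T cell fate, NKT-like cells held 1 at a higher and 2 at a lower level when set against cultured CD4+ cells. The shares of all probe sets in this comparison were 0.85% higher and 1.33% lower. Batf, an AP-1 family factor, read 8.86 to 10.10 in NKT-like and at least 10.94 in cultured CD4+ cells (3.22-fold lower, q = 0.00286). Gata3, which directs type 2 helper differentiation, read 7.54 to 9.28 and 10.68 to 10.94 (5.24-fold lower, q = 0.00252), and Eomes, a T-box factor of cytotoxic cells, 11.41 to 11.92 and 6.50 to 6.56. The cultured CD4+ cells, in which Ccr4 and Ccr8 were higher, were thus also those with the higher Gata3 and Batf, and no relation between these genes was tested.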
